A study of Drosophila melanogaster with 2 samples.

Results

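The genes that encode the RNA polymerase II transcription machinery were examined as targets of CG2202-GFP, a fly protein known by its annotation symbol and fused to green fluorescent protein (GFP). Members were the genes of the Ensembl annotation of the fly genome whose symbol starts with Taf and a digit, TfII, MED and a digit, RpII and a digit, or Polr2, together with Tbp. The rule took 63 of the 17896 genes on the 6 chromosome arms of the peak lists, all of them protein-coding, and used no binding values. They comprised 16 genes of TFIID, 9 of the other TFII factors, 25 of Mediator and 13 of the polymerase.

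Binding was measured by chromatin immunoprecipitation and sequencing (ChIP-seq) with an antibody against GFP in whole Drosophila melanogaster embryos aged 0 to 12 h. Both samples came from a transgenic line that stably expresses CG2202 with GFP at its C terminus, and they are 2 biological replicates of 1 group. Whole embryos of this span mix many cell types and stages, so a peak does not say in which cells the protein was bound, and sonicated fragments of 200 to 800 (no unit labelled) limit how finely it is placed. No second condition was analysed here, and the members are set against the other genes of the genome.

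Transcription of protein-coding genes starts when TFIID, built of the TATA-binding protein TBP and its associated factors (TAFs), recognises a core promoter. The other general factors then bring in the polymerase and open the DNA, and Mediator passes signals from sequence-specific activators to the polymerase. Most genes of this machinery are needed in nearly every cell. In the compact fly genome many such genes start close to a neighbour on the opposite strand, so that 1 stretch of DNA serves as promoter of both.

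The sequences under strong member summits show what DNA the peaks were centred on. Up to 50 bases on each side of the summit are given for up to 2 members per complex, in the direction of the member gene, from the RefSeq Release 6 assembly of the dm6 build. Runs were ended where an annotated exon begins, so each lies outside the annotated exons and upstream of a start site of its gene. For Taf4 and TfIIA-L that is not the first start site, so their windows lie inside the gene. In TFIID Taf4 is shown, and not Taf5, whose signal was higher, nor Taf2, whose summit lies in an exon of its neighbour. In the other complexes the members shown are those of highest signal. The windows are chr3L:16113629-16113729 on the plus strand for Taf4, chr3R:27253193-27253293 plus for TfIIA-L, chr2L:10431019-10431119 plus for TfIIB, chr3R:5654939-5655039 plus for MED27, chr3L:654221-654321 minus for MED30, chr3R:14125686-14125786 plus for Polr2B and chr2L:17410544-17410640 minus for Polr2J. Capitals mark matches, on either strand, to any of 9 words searched. They were TATCGATA, the DNA replication-related element, and the shorter CGATA, then TATAAA of the TATA box, the E-box words CACGTG and also CAGCTG, the GAGA factor word GAGAG, the core promoter word GGTCACAC, and the A-rich words TTTAAAAA and also TTAAAAAA.
Taf4: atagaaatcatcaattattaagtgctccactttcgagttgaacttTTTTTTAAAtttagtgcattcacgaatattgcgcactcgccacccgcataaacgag
TfIIA-L: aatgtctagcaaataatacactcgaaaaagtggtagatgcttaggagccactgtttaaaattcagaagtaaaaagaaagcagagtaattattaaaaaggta
TfIIB: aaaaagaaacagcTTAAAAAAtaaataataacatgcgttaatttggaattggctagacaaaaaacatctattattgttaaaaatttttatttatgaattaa
MED27: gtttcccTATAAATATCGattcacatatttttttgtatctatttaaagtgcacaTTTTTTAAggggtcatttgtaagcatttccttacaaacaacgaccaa
MED30: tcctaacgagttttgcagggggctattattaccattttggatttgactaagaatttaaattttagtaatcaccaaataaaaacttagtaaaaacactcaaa
Polr2B: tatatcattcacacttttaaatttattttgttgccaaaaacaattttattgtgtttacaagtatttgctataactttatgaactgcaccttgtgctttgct
Polr2J: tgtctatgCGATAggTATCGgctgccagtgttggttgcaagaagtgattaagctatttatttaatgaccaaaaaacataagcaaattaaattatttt

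The printed DNA was rich in A and T. Over all 16 members with a summit in the IDR list described next, GC content within 50 bp of the summit averaged 30.9% (SD 6.85), against 33.2% (SD 10.2) over protein-coding genes with such a summit. The word TTAAAAAA was found at 4 of the 16 member summits, which is 25.0% (95% exact binomial interval 7.27 to 52.4), against 7.54% of the 1618 promoter summits of that list. The 4 were those of Taf4, Taf2, TfIIB and MED27, and at Taf4 the match overlapped one to TTTAAAAA, the word next to it. TATAAA, the core of the TATA box, was found at 25.0% of member summits, those of Taf5, MED27, MED17 and Polr2H, and at 24.1% of all. CGATA, which also lies within the longer TATCGATA, was found at 18.8% and 18.6%, with 2 matches in the printed stretch of Polr2J and 1 that touches a TATAAA match in that of MED27. At 0 of the 16 were found TATCGATA (2.41% of all), the word CAGCTG (4.20% of all), the word GAGAG (9.09% of all) and the word GGTCACAC (1.92% of all). In the pooled list, however, GGTCACAC was found at 5 of 49 member summits, or 10.2% (interval 3.40 to 22.2), against 2.63% of the 9651 promoter summits. There TTAAAAAA was found at 14.3% of member summits (interval 5.94 to 27.2), against 3.44% of all. CACGTG was found at 1 member summit, that of MED17, and at 0.989% of all. TfIIA-L, MED30, MED4, MED31, MED16, Polr2B and Polr2F held none of the 9 words. A match is a description of these letters and not a binding site.

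The peaks came as 4 lists: a list of 30000 peaks for each replicate, a pooled list of 30000 peaks made from both, and a list of 3571 peaks that the authors kept under a threshold on the irreproducible discovery rate (IDR). The IDR peaks were the 3571 strongest of the pooled list by signal, so a place in that list marks a high pooled signal and does not show that the replicates ranked the peak alike. Each peak carries a summit and a signal value, which is the authors' own from their peak caller and is compared within 1 list only. A gene was counted as having a promoter summit when at least 1 of its transcription start sites (TSSs) had a summit no more than 500 bp away, and its strongest such summit was described. Rank 1 is the highest signal of a list. Only 13201 pooled peaks had a q-value under 0.05, so a pooled summit can rest on a weak peak. IDR signals ran between 120.9 and 2323, and the sequencing depth behind them is unknown. CG2202 itself, on X, had an IDR promoter summit 59 bp upstream of its TSS with a signal of 125.5 at rank 3386.

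An IDR promoter summit lay at 16 of the 63 members, and most of the rest had a weaker one. The 16 make 25.4% (95% exact binomial interval 15.3 to 37.9), against 14.1% of the 13945 protein-coding genes and 12.1% of all genes. In the pooled list 50 members had a promoter summit, or 79.4% (interval 67.3 to 88.5), against 53.5% of protein-coding genes and 48.7% of all genes. With a q-value below 0.05 there were 38 members, or 60.3% (interval 47.2 to 72.4), against 39.9% of protein-coding genes. Among genes with any pooled promoter summit, 32.0% of members (16 of 50, interval 19.5 to 46.7) had an IDR one. The share of all such genes, noncoding ones included, was 24.9%. The members' interval included that value. Of the 7456 protein-coding genes with a pooled promoter summit, 1965 had an IDR one. The replicates differed in how many members they placed high. Replicate 2 alone had 18 members, or 28.6% (interval 17.9 to 41.3), within its 3571 strongest peaks, against 15.8% of protein-coding genes. Replicate 1 alone had 10, or 15.9% (interval 7.88 to 27.3), against 12.4% of protein-coding genes, so its members' interval included the protein-coding value. These shares describe a gene list chosen with results of these data known, and no test was made of it.

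**Figure D1:**
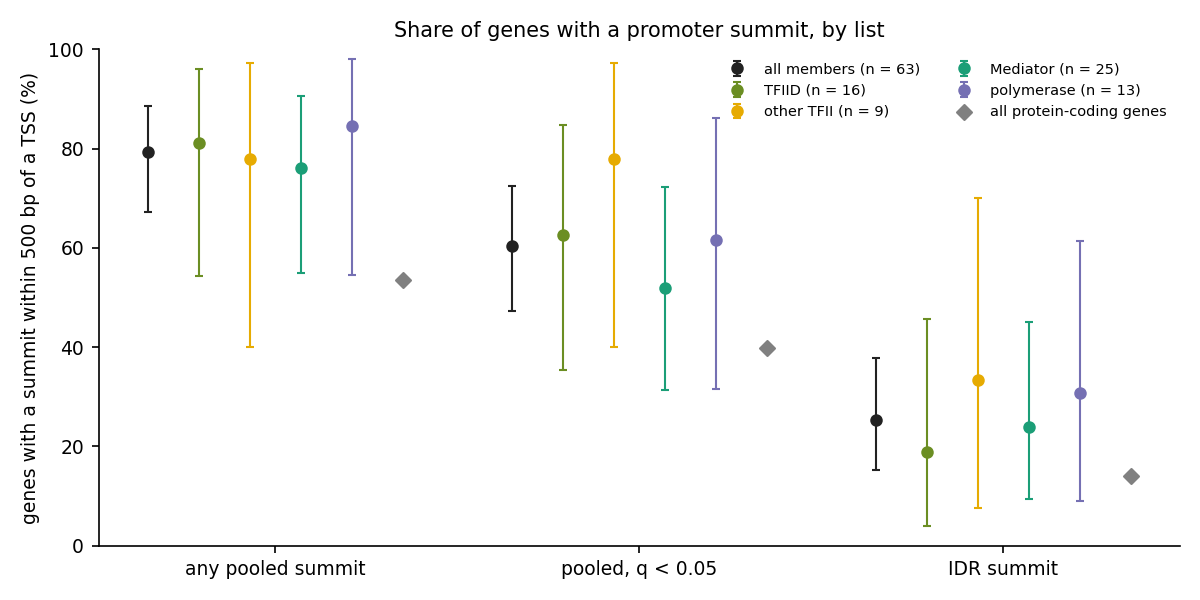
Share of genes with a promoter summit (percent, from 0) in the pooled list, in the pooled list with a q-value below 0.05 and in the IDR list, for the members by complex and in all, with 95% exact binomial intervals as bars, beside the share over all protein-coding genes. In the IDR list the members' share was 25.4% and the protein-coding share 14.1%.

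Each of the 4 complexes had genes with and without an IDR promoter summit, and the intervals of their shares overlapped. IDR promoter summits lay at 3 of 16 TFIID genes (18.8%, interval 4.05 to 45.6), 3 of 9 other TFII genes (33.3%, 7.49 to 70.1), 6 of 25 Mediator genes (24.0%, 9.36 to 45.1) and 4 of 13 polymerase genes (30.8%, 9.09 to 61.4). Each of these intervals included the protein-coding share of 14.1%. Pooled promoter summits lay at 13 TFIID genes (81.2%, interval 54.4 to 96.0) and 7 other TFII genes (77.8%, 40.0 to 97.2). They also lay at 19 Mediator genes (76.0%, 54.9 to 90.6) and 11 polymerase genes (84.6%, 54.6 to 98.1). The protein-coding share of 53.5% was within the other TFII interval and just below the rest. Without replicate 2, by the strongest peaks of replicate 1 alone, the counts were 2, 1, 4 and 3, and without replicate 1 they were 3, 2, 8 and 5.

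**Figure D2:**
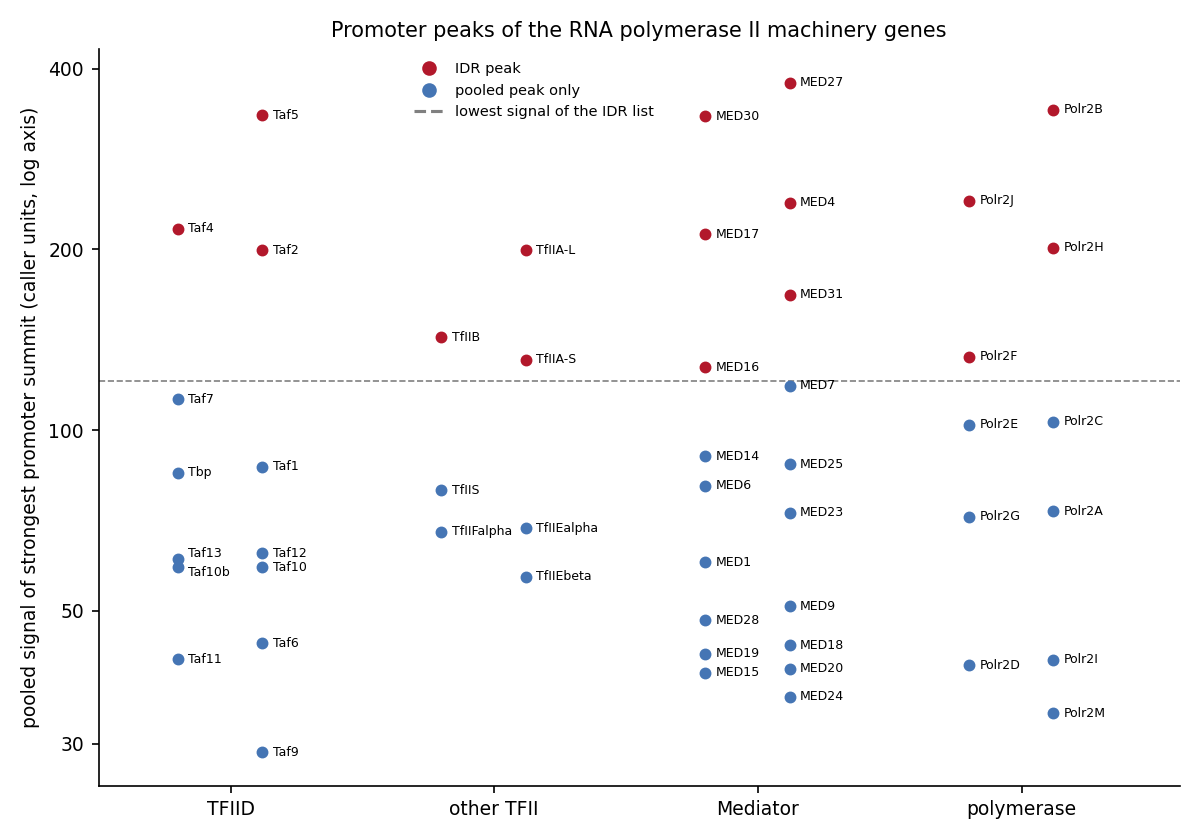
Pooled signal (caller units, log axis) of the strongest promoter summit of each of the 50 members that had one, in 4 columns by complex, with IDR peaks in red, other pooled peaks in blue and the lowest IDR signal as a dashed line. Each complex has members on both sides of the line, and MED27 is highest at 379.4.

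In TFIID the 3 genes with an IDR promoter summit encode large subunits. Taf5 (FBgn0010356), a WD40-repeat scaffold subunit, had the highest signal of the complex, 334.7 at rank 657, in a peak at chr2R:10879712-10879955 with its summit 123 bp upstream of the TSS. Its signal was 77.7 in replicate 1 at rank 2511 and 269.4 in replicate 2 at rank 290. Taf5 was thus ranked far higher in replicate 2, with summits 100 bp apart. Taf4 (FBgn0010280), a histone-fold subunit that holds the TFIID core together, had a signal of 216.6 at rank 1487. Its summit lay 111 bp upstream of a start site inside the gene. Taf4 was the most alike of the 3 between replicates. Its signals were 104.7 at rank 1505 in replicate 1 and 112.7 at rank 1580 in replicate 2. Taf2 (FBgn0011836), a subunit that contacts promoter DNA near the start site, had a signal of 199.6 at rank 1700, 113 bp upstream, with ranks of 6341 in replicate 1 and 858 in replicate 2. Taf2 was the 1 member with a second IDR promoter summit, 316 bp upstream with a signal of 187.6 at rank 1861. Tbp, which binds the TATA box, had no IDR promoter summit. Its pooled summit, 157 bp upstream, had a signal of 84.86 at rank 6120, and its rank was 15284 in replicate 1 and 3966 in replicate 2, with the replicate summits 283 bp apart. The TFIID genes next below the IDR list were Taf7, with a pooled signal of 112.6 at rank 4016, and Taf1, the largest TAF, with 86.81 at rank 5917 and a summit 110 bp downstream of its TSS.

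Among the other TFII genes, TfIIA-L, TfIIA-S and TfIIB had IDR promoter summits, whereas the TFIIE and TFIIF genes did not. TfIIA-L (FBgn0011289), whose product is processed into the larger TFIIA chains, had a signal of 199.3 at rank 1706. Its summit lay 187 bp upstream of a start site inside the gene. With the 5′-most TSS only, TfIIA-L had no IDR promoter summit. It was ranked 3810 in replicate 1 and 1071 in replicate 2. TfIIA-S (FBgn0013347), the small subunit that with TfIIA-L steadies TBP on DNA, had 131.0 at rank 3167, 18 bp upstream. This was the 1 IDR member of the 16 outside the top 3571 peaks of replicate 2, with rank 2014 in replicate 1 and 6946 in replicate 2. TfIIB (FBgn0004915), which bridges TBP and the polymerase, had 142.9 at rank 2792, 269 bp upstream, with ranks of 5645 in replicate 1 and 1272 in replicate 2 and the widest gap between replicate summits of the 16, 186 bp. TfIIS, an elongation factor that restarts stalled polymerase, led the rest with a pooled signal of 79.43 at rank 6731, followed by TfIIEalpha, the large TFIIE subunit, with 68.64 at rank 8170. TfIIFbeta and TfIIA-S-2 had no promoter summit in any list.

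The Mediator genes with IDR promoter summits encode subunits of its head, middle and tail. MED27 (FBgn0037359) had the highest signal of all members, 379.4 at rank 515, 150 bp upstream. Its signal was 119.2 at rank 1201 in replicate 1 and 262.3 at rank 308 in replicate 2, with summits 9 bp apart. MED30 (FBgn0035149), a subunit known from animals and not from budding yeast, had 333.3 at rank 661, 182 bp upstream, with signals of 128.8 at rank 1054 in replicate 1 and 209.9 at rank 509 in replicate 2. Both genes were thus high in each replicate. MED4 (FBgn0035754), of the middle module, had 239.1 at rank 1245, 129 bp upstream. MED17 (FBgn0038578), the scaffold of the head, had 212.2 at rank 1525, 189 bp upstream. MED31 (FBgn0037262), a small subunit of the middle, had 168.1 at rank 2188, 142 bp upstream. MED16 (FBgn0034707), of the tail, was the member closest above the IDR limit, with 127.3 at rank 3316 and a summit 185 bp upstream. In each of these 4 the rank was higher in replicate 2, for example 5630 in replicate 1 and 1445 in replicate 2 for MED31. MED7, a middle subunit, was the member closest below the limit, with a pooled signal of 118.5 at rank 3700, and its ranks were 14451 in replicate 1 and 2106 in replicate 2. MED14, the backbone that joins the modules, came next with 90.45 at rank 5588. MED21 and MED22 had no promoter summit in any list. MED21, at chr3L:25114924-25115946, lies beyond the last pooled peak of that arm, which ends at 22950899.

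Among the polymerase genes the IDR promoter summits lay at 1 of the 2 largest subunits and at 3 small ones. Polr2B (FBgn0262955), the second-largest subunit, had a signal of 342.0 at rank 638, 55 bp upstream, with signals of 125.4 at rank 1095 in replicate 1 and 207.7 at rank 521 in replicate 2. Polr2A, the largest subunit and carrier of the C-terminal repeat domain, had only a pooled summit, 120 bp upstream with a signal of 73.18 at rank 7479. It was ranked 20896 in replicate 1 and 4747 in replicate 2. The 2 subunits that line the active cleft stood 6841 ranks apart in the pooled list. Polr2J (FBgn0032634), which pairs with Polr2C in the enzyme, had 241.2 at rank 1225, 188 bp upstream. Polr2C itself had a pooled signal of 103.2 at rank 4603, with a rank of 2789 in replicate 2 and no promoter summit in replicate 1. Polr2H (FBgn0037121) and Polr2F (FBgn0003275), subunits that all nuclear RNA polymerases share, had 201.2 at rank 1673 and 132.5 at rank 3116. The Polr2H summits of the replicates lay 3 bp apart, the closest of the 16. The Polr2F summit was the 1 of the 16 downstream of the nearest TSS of its gene, by 26 bp. Its replicate summits lay 126 bp apart. Polr2E, another shared subunit, had a pooled signal of 102.0 at rank 4682. Polr2K had no promoter summit in any list.

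The members with IDR promoter summits were of middling strength for that list. Their signal had a median of 206.7 (quartiles 161.8 to 264.2), against 197.6 (147.5 to 303.9) over protein-coding genes with an IDR promoter summit. None was among the 500 strongest peaks, and 4 were among the 1000 strongest, namely MED27, Polr2B, Taf5 and MED30. These 4 also had the narrowest peaks, 207 to 244 bp wide, where the other 12 were 400 bp wide. Width moved with rank in the whole list too, since 90.9% of IDR peaks up to rank 700 were narrower than 400 bp and 38.4% of those beyond it. At the limit, MED16, TfIIA-S and Polr2F had pooled signals of 127.3, 131.0 and 132.5 just inside the IDR list, and MED7, Taf7 and Polr2C had 118.5, 112.6 and 103.2 just outside it.

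The 34 members with a pooled promoter summit alone had signals between 29.03 and 118.5, with a median of 60.61. In 22 of them the q-value was below 0.05 and in 27 the summit lay upstream. Another 7 members had a promoter summit only in 1 or both replicate lists, namely Taf3, Taf8, MED8, MED10, MED11, MED26 and Polr2L. By complex, pooled signals outside the IDR list ran between 29.03 at Taf9 and 112.6 at Taf7 in 10 TFIID genes, with a median of 60.03. In 4 other TFII genes they ran between 56.94 at TfIIEbeta and 79.43 at TfIIS, with a median of 68.19. The 13 Mediator genes spanned 35.92 at MED24 to 118.5 at MED7, with a median of 50.82, and MED25, MED6 and MED23 stood at 87.76, 80.82 and 72.78. The 7 polymerase genes spanned 33.68 at Polr2M to 103.2 at Polr2C, with a median of 71.63. Each complex thus had members well below its IDR genes, the lowest of which had a signal of 127.3. A promoter summit in 1 replicate list and the pooled list, but not in the other replicate list, was found at 9 members. It was missing in replicate 1 for Taf6, Taf11, TfIIEbeta, MED1, MED15, MED24 and Polr2C, and in replicate 2 for MED19 and MED20. No list gave one for 6 members, Taf12L, TfIIA-S-2, TfIIFbeta, MED21, MED22 and Polr2K. A missing summit says only that none was listed, not that the protein was absent.

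Replicate 2 ranked the members with IDR promoter summits higher than replicate 1 did. That held for 14 of the 16 (87.5%, interval 61.7 to 98.4), and the exceptions were Taf4 and TfIIA-S. It also held for 66.0% of protein-coding genes with such a summit and a promoter summit in each replicate list. The members' interval included that value. In replicate 1 the 16 members ranked between 1054 and 6916, with a median of 2300. In replicate 2 they ranked between 290 and 6946, with a median of 1086. Within the 3571 strongest peaks of replicate 1 there were 10 of the 16 (62.5%, interval 35.4 to 84.8), against 75.4% of the protein-coding genes. Within those of replicate 2 there were 15 (93.8%, interval 69.8 to 99.8), against 88.8%. In both there were 9 (56.2%, interval 29.9 to 80.2), against 65.2%. Each of these intervals included the protein-coding share. Replicate summits of a member lay a median of 25.0 bp apart (quartiles 12.0 to 68.2), against 39.0 bp (16.0 to 77.0) over protein-coding genes. Across the 41 members with a pooled summit and a summit in each replicate list, the replicate signals had a Spearman rho of 0.659, against 0.634 over protein-coding genes. Across the 16 members with IDR promoter summits rho was lower, 0.341, against 0.515 over protein-coding genes. These correlations are across genes of the same 2 libraries, and depth is unknown. The largest gaps in percentile rank between replicates were at Taf12, a histone-fold TAF ranked 28273 in replicate 1 and 5780 in replicate 2, at MED26, ranked 8693 and 29091 in those replicates, and at MED10, ranked 6403 and 24141. MED26 and MED10 had no pooled promoter summit, and their replicate summits lay 760 and 231 bp apart.

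**Figure D3:**
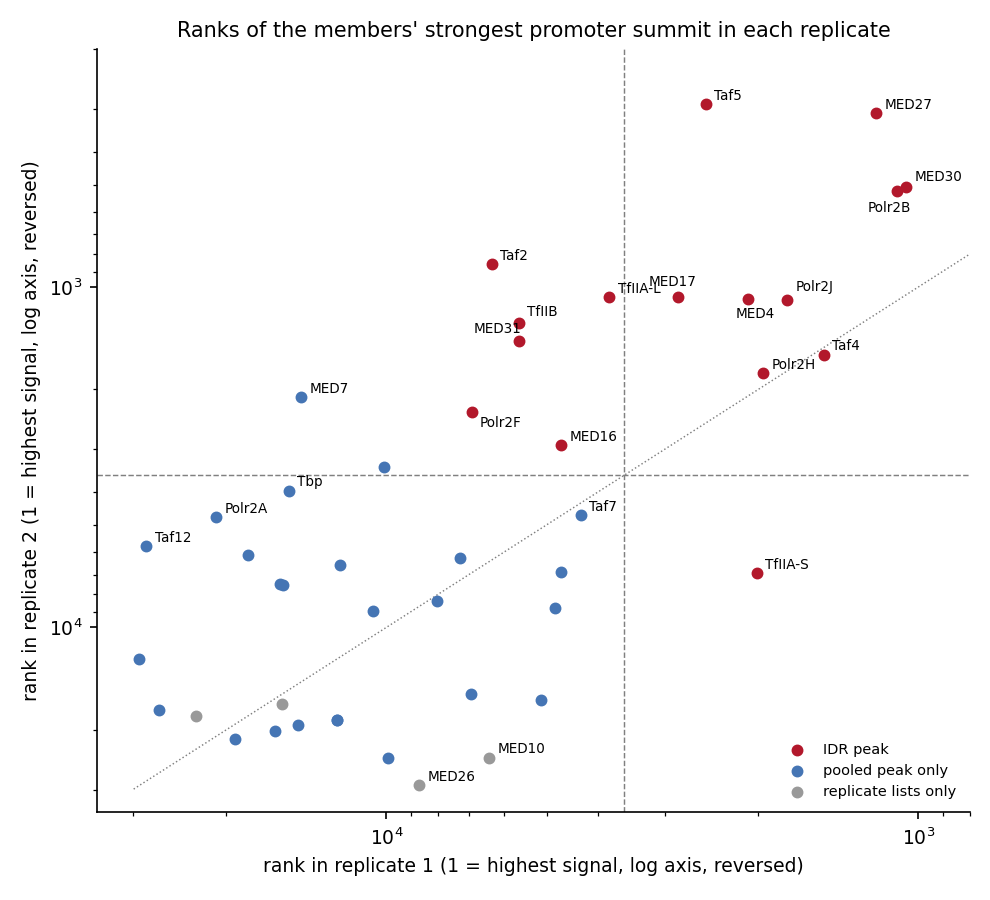
Rank of the strongest promoter summit of each member in replicate 1 (horizontal) and replicate 2 (vertical), both on reversed log axes with rank 1 toward the upper right, for the 45 members listed in both. Dashed lines mark rank 3571 and the dotted line equal rank; 14 of the 16 red points, the members with IDR peaks, lie above the dotted line.

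Most member IDR summits lay in a narrow stretch upstream of the start site. The 16 IDR summits had a median position of 142 bp upstream (quartiles 185.5 to 112.5 upstream), against 128 bp upstream (206 to 45 upstream) over protein-coding genes with an IDR promoter summit. Measured from the nearest TSS of any gene, often the neighbour described next, the median of the 16 was -58.0 bp, so the distance holds for the member's own start site only. Between 100 and 200 bp upstream of it lay 12 of the 16, or 75.0% (interval 47.6 to 92.7), against 34.8% of the protein-coding genes. The window of 100 to 200 bp was not planned, so this share only describes where these summits lay. Upstream of the TSS lay 15 of the 16 (93.8%), against 82.1%. Among the 50 pooled summits 84.0% lay upstream, against 69.2%, with medians of 112 and 79 bp upstream. Most members, 57 of 63, have a single annotated TSS. Of the 16, however, Taf4 has 3 and TfIIA-L has 2, and their distances are from a start site inside the gene. Both summits lie downstream of the first start site of their gene. With the 5′-most TSS only, 15 members had an IDR promoter summit.

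**Figure D4:**
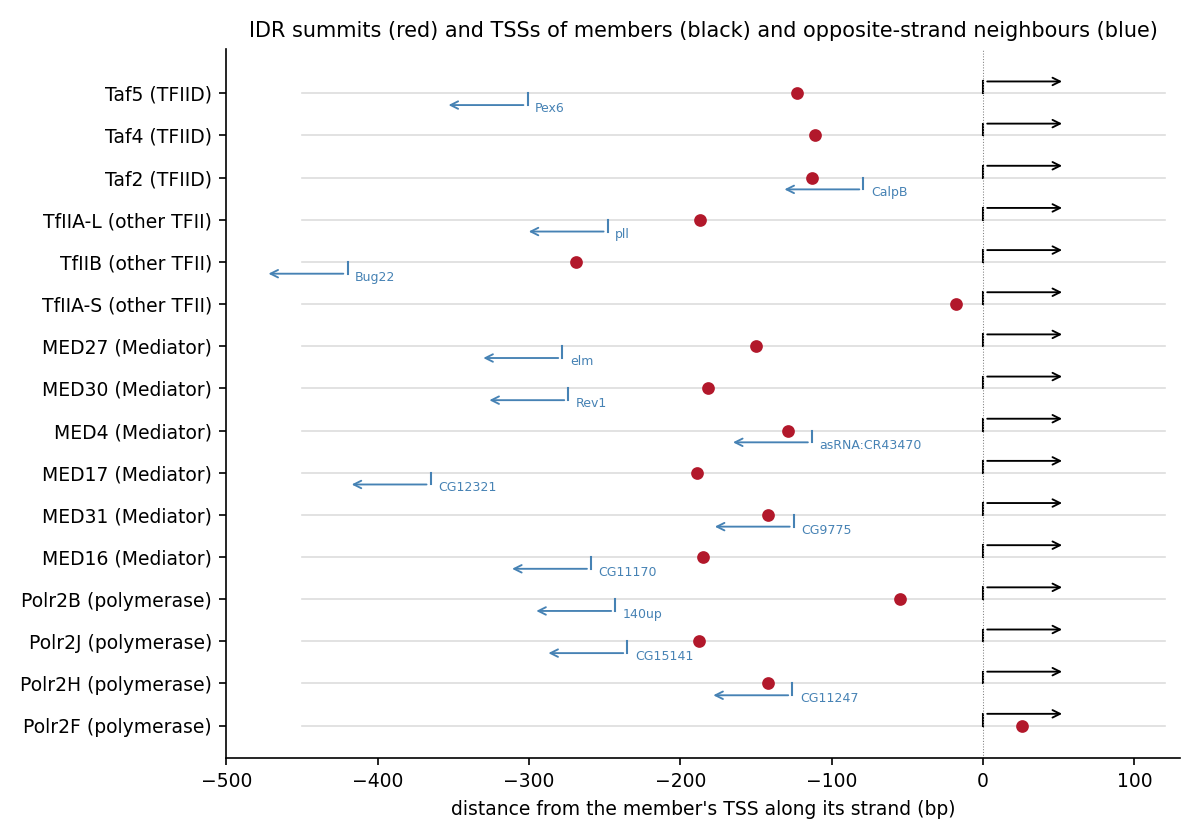
Position in bp along each member's strand of its IDR summit (red point) and of the TSS of the neighbour on the opposite strand (blue bar and arrow), with the member's own TSS at 0 (black arrow), for the 16 members by complex. Of the 16 summits, 12 lie between 100 and 200 bp upstream, and 9 lie between facing start sites.

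Most of the member promoters with an IDR summit were shared with a neighbour. At 13 of the 16 IDR members, or 81.2% (interval 54.4 to 96.0), the summit also lay within 500 bp of a TSS of another gene, against 58.9% of protein-coding genes with an IDR promoter summit. Such a gene was on the opposite strand at 13 of the 16 (81.2%), against 55.8% of the protein-coding genes. The 13 pairs of start sites were 79 to 420 bp apart, with a median of 248 bp. Only Taf4, TfIIA-S and Polr2F had no such neighbour. In the pooled list 68.0% of members (34 of 50) shared the summit in this way, against 47.6%. The summit was nearer to the neighbour's TSS than to the member's in 11 of the 16 members, or 68.8% (interval 41.3 to 89.0), against 28.5% of the protein-coding genes. A peak at such a place cannot be assigned to the member rather than its neighbour.

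In 9 of the 13 shared promoters the summit lay between the start sites, which were then 235 to 420 bp apart. Taf5 faced Pex6, a peroxisome biogenesis gene, TfIIA-L faced pll, the kinase gene of the Toll pathway, and TfIIB faced Bug22, a gene of cilia. MED27 faced elm, MED30 faced Rev1, a DNA polymerase gene of damage bypass, MED17 faced CG12321 and MED16 faced CG11170. Polr2B faced 140up and Polr2J faced CG15141. The Polr2B summit was the 1 of these 9 furthest from the neighbour, 188 bp against 55 bp from the member, and that of Polr2J was the closest to it, 47 bp against 188 bp. The other 4 pairs had start sites closer together, and the summit lay 16 to 34 bp inside the neighbour. They were Taf2 with CalpB, a calpain protease gene whose start site is 79 bp away, MED4 with the antisense RNA gene CR43470 (113 bp), MED31 with CG9775 (125 bp) and Polr2H with CG11247 (126 bp). MED31 also shares its TSS with slx1 on the same strand.

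Facing start sites were more frequent among members than among protein-coding genes, whatever the peaks. A TSS of another gene on the opposite strand lay within 500 bp of a TSS of 39 of the 63 members, or 61.9% (interval 48.8 to 73.9), against 30.6% of protein-coding genes. The comparison within each kind of gene was added after the peaks had been seen. Among members with such a neighbour 13 of 39 had an IDR promoter summit, or 33.3% (interval 19.1 to 50.2), against 26.3% of the protein-coding genes with one. Among members without it 3 of 24 did, or 12.5% (interval 2.66 to 32.4), against 8.7% of the protein-coding genes without one. Within each kind of gene the members' interval therefore included the protein-coding share. Neighbours were found at 9 TFIID, 4 other TFII, 18 Mediator and 8 polymerase genes, and 2, 2, 6 and 3 of these had the IDR promoter summit. All 6 Mediator genes with an IDR promoter summit were of this kind, 33.3% of the 18 with a neighbour (interval 13.3 to 59.0). There were 0 among the 7 Mediator genes without a neighbour (interval 0 to 41.0). These intervals, too, included the protein-coding shares of 26.3% and 8.7%.

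Some weaker promoters were shared as well. Taf10 and Taf10b, paralogous TFIID genes with start sites 45 bp apart, had 1 pooled summit between them, with a signal of 59.03 at rank 10032, so the 50 members stood on 49 summits. MED20 starts 47 bp from Trf, a relative of Tbp, and Taf6 starts 333 bp from ash1, a histone methyltransferase gene. Polr2D shares its start site with Ada2a. Each of these had a pooled summit without an IDR one, and so did Polr2I, which starts 500 bp from su(Hw), an insulator protein gene.

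Genes that work with these complexes under other symbols also included some with IDR promoter summits. Of 10 TFIIH genes, 2 had IDR promoter summits and 10 had pooled ones, where the pooled share of protein-coding genes was 53.5%. Ssl1, a TFIIH core subunit, had a signal of 1354 at rank 15, far above any member, at a promoter it shares with Chro, and mrn had 127.7 at rank 3297. Of 4 genes of the Mediator kinase module, skd alone had an IDR promoter summit (25.0%, interval 0.631 to 80.6), and all 4 had pooled ones. The skd summit lay 436 bp upstream with a signal of 135.0. The gene was ranked 26171 in replicate 1 and 2131 in replicate 2. Among 8 relatives of TAFs, TBP and TFIIA only Brf had an IDR promoter summit, with 414.2 at rank 422. Brf is a TFIIB relative that serves RNA polymerase III. Of 25 genes of pausing and elongation 8 had an IDR promoter summit, or 32.0% (interval 14.9 to 53.5), and 24 a pooled one. They were Nelf-E with a signal of 508.4 at a promoter shared with RpL14, EloB with 247.9, Cdk12 with 231.6, EloA with 199.5, TH1 with 198.0, dre4 with 190.2, Su(Tpl) with 135.1 and Spt3, a subunit of the coactivator SAGA, with 125.1. Each of these can be read against the protein-coding share of 14.1%, and the interval of the TFIIH genes (20.0%, 2.52 to 55.6) includes it. That of the pausing and elongation genes starts just above it, and this list, too, was chosen with results of these data known. Apart from dre4, each related gene named here for its IDR promoter summit had a TSS of another gene within 500 bp of it. Those peaks cannot be assigned to the related gene rather than its neighbour.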

How the data were processed

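The 2 samples are ChIP-seq libraries of whole embryos, and the 4 peak lists derive, per the deposited text files, from the replicate alignments and a control alignment on dm6. The deposited signal value is the authors' own from their peak caller, used to rank and describe peaks within a list. The deposited −log10 q-value reaches a single maximum per list and was used only for the threshold of 0.05. The aligner, caller and IDR threshold were not given in the labels or text files used here. Depth per sample is likewise unknown.

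Members and lists were chosen with earlier results of these data known. Start sites (23722) came from Ensembl release 115 without pseudogenes and transposable elements, and sequence from RefSeq. Distances are from the summit to the nearest TSS of the gene. The symbols Med, Arc42 and Spn denote other proteins in this annotation and were left out of the related lists. Exact binomial (Clopper-Pearson) 95% intervals cover the counting of genes only, which are no replicates. Text names every member with an IDR promoter summit, the 2 strongest others per complex, the 3 most unequal between replicates, Tbp, Polr2A, CG2202, members without a pooled promoter summit and related genes with an IDR one, except for the list of RNA polymerase I and III genes, which is not reported here. The pooled-only pairs with a known neighbour were chosen after their values were seen. Alternatives were windows of 250 and 1000 bp, the 5′-most TSS, any base of the peak, a stricter list, a q-value limit and each replicate alone. Summit assignment was tested on simulated data. Tables were made in Python 3.11.15 with pandas 2.3.3 and numpy 2.4.6, intervals with scipy 1.17.1 and plots with matplotlib 3.10.9.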

Additional observations from a re-analysis of the deposited data

How the results depend on the processing

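The share of members with an IDR promoter summit was 25.4% and lay between 23.8% and 28.6% with windows of 250 and 1000 bp, the 5′-most TSS or any base of the peak, but was 6.35% in the stricter list of 1000 peaks, where the protein-coding share was 4.39%. With either replicate alone it was 15.9% to 28.6%, and by complex 12.5% to 18.8% for TFIID, 11.1% to 22.2% for other TFII, 16.0% to 32.0% for Mediator and 23.1% to 38.5% for the polymerase. The share with a pooled promoter summit, 79.4%, was 60.3% with a q-value below 0.05 and 74.6% to 87.3% with either replicate alone. The median position of the IDR summits, -142 bp from the member's TSS, was -58.0 bp from the nearest TSS of any gene and -146.0 to -128.0 bp with either replicate alone. The share of IDR members with a neighbouring TSS, 81.2%, was the same with windows of 250 and 1000 bp and 80.0% to 83.3% with either replicate alone. The stricter list, the q-value limit and the replicate lists hold fewer or other peaks by construction, and the nearest TSS is often the neighbour's.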
